A study of Mus musculus with 31 samples.

Results

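The comparison set the hippocampal microRNAs of wild-type (WT) mice after 4 weeks of exercise directly against those of WT mice after 4 weeks of corticosterone. Its members were chosen by genotype and treatment label alone: 5 WT-exercise and 6 WT-corticosterone libraries, 11 of the 31 in the study, and no water library entered the test. Each library came from small RNA of the right hippocampus of a C57Bl/6 J mouse, labelled as a biological replicate. Corticosterone is the main glucocorticoid stress hormone of rodents; age, sex, the kind of exercise and the hormone's dose and route are not stated in the labels. The groups set beside the comparison were WT mice that received water (n = 7) and mice without the serotonin transporter 5-HTT (knockout, KO) after exercise (n = 5) or corticosterone (n = 2).

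MicroRNAs are short RNAs that pair with messenger RNAs through their seed, bases 2 to 8 from the 5′ end, and lower the output of those messengers. A precursor hairpin gives a 5p and a 3p arm, of which one usually dominates. MiR-132 and miR-212 lie in one locus whose transcription is driven by the factor CREB, which neuronal activity and neurotrophins switch on, and miR-132 promotes dendrite growth and synaptic plasticity in the hippocampus. The gene Htr2c, which encodes the serotonin 2C receptor, carries a series of microRNAs in its introns. It is strongly expressed in the choroid plexus, the epithelium that makes cerebrospinal fluid and lies beside the hippocampus in the ventricle, as is miR-204, and miR-34b and miR-34c mark cells with motile cilia.

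The sequences on which the comparison turned are those of 3 groups. The first holds the miR-132 and miR-212 arms, where both 3p arms carry 1 seed. The second holds microRNAs of Htr2c introns, each with a seed of its own. The third holds miR-204-5p and miR-211-5p, both from a list of choroid plexus and ciliated cell microRNAs, with the miR-34 seed family. RefSeq mature sequences (GRCm38.p6) were matched for 449 of the 521 microRNAs tested. They are shown 5′ to 3′ with the seed in capitals.
miR-212-3p: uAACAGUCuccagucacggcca
miR-132-3p: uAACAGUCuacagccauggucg
miR-132-5p: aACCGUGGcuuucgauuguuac
miR-212-5p: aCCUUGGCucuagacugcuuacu
miR-448-3p: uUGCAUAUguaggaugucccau
miR-1298-5p: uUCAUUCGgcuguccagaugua
miR-1264-3p: cAAAUCUUauuugagcaccugu
miR-3552: aGGCUGCAggcccacuucccu
miR-204-5p: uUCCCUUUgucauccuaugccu
miR-211-5p: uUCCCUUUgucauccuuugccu
miR-34b-5p: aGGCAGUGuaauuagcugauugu
miR-34a-5p: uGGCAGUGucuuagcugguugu
MiR-212-3p lies at chr11:75173443-75173464 and miR-132-3p at chr11:75173723-75173744 on the plus strand, both within an intron of the noncoding transcript 1700016P03Rik. The 2 sequences are identical at 17 of 22 positions. MiR-204-5p (chr19:22750610-22750631, an intron of Trpm3) and miR-211-5p (chr7:64205831-64205852, an intron of Trpm1) are identical at 21 of 22 positions, so how the authors' counting divided reads between them is uncertain. The 4 Htr2c microRNAs shown lie within chrX:146962513-147197277, on the strand of the gene.

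The 11 libraries held 1411350 to 2409803 counts, with 869 to 965 microRNAs detected in each. Total counts averaged 1833409 ± 342167 after exercise (SD, n = 5) and 1920854 ± 341326 after corticosterone (SD, n = 6; two-sided exact permutation p = 0.697, adjusted p = 0.970 over 4 library measures). Neuron-specific miR-124-3p took 23.6% ± 1.39 and 24.5% ± 2.83 of the counts (exact permutation p = 0.589), and with miR-9-5p it marked both groups as neural tissue. Libraries within a group differed widely. In the 20 other libraries of the study, 1 principal component held 39.2% of the variance within groups; projected on it, WT-exercise libraries 1 and 2 (scores of -7.18 and -8.83) and WT-corticosterone library 2 (-7.61) lay near the WT-water libraries (-8.00 to -10.9), whereas WT-exercise libraries 3, 4 and 5 scored 13.4, 8.07 and 7.52. The mean scores were 2.59 ± 9.96 after exercise and 2.21 ± 6.55 after corticosterone (SD, exact permutation p = 0.970). Libraries of KO mice that received water lay at both ends of this component. Libraries 1, 2 and 5 of that group scored -8.71, -9.54 and -8.60, and libraries 3, 4 and 6 scored 12.2, 18.9 and 17.4. The component therefore did not part water from treatment. In these bulk samples fewer cells of a type and less RNA per cell cannot be told apart.

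In the main edgeR test no microRNA was called between exercise and corticosterone at an adjusted p below 0.05. The difference with the smallest p was miR-212-3p, which was 1.58 times as high after exercise, followed among abundant microRNAs by its neighbour miR-132-3p at 1.49 times. In the other direction, microRNAs of Htr2c introns and the choroid plexus microRNA miR-204-5p averaged 2.25 to 4.73 times as high after corticosterone for miR-204-5p, miR-1264-3p, miR-1298-5p and miR-448-3p, with the highest levels in 3 of the 6 corticosterone libraries. Of 521 microRNAs tested, 0 (percent called 0) passed an adjusted p below 0.05 in edgeR's quasi-likelihood test with Benjamini-Hochberg adjustment. At an unadjusted p below 0.05 there were 20 (3.84%), of which 8 were higher (1.54%) and 12 lower after exercise (2.30%). The share of 3.84% is smaller than the fraction of 0.05 that such a threshold would pass with no difference at all. DESeq2 called 1, miR-212-3p.

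The fitted differences were small against their errors. The median log2 fold change (exercise over corticosterone) was 0.03, the median absolute value 0.15 and the median standard error (SE) 0.27. For 395 microRNAs (75.8%) the 95% interval lay within 1 log2 unit of 0, and among the 251 with a mean of at least 100 CPM (counts scaled to a common library size) this held for 212. A bound of 0.5 log2 units was met by 78. All 10 microRNAs whose fitted difference was above 1 log2 unit were lower after exercise. Of these 10, 8 lay in Htr2c introns or were on the list of choroid plexus and ciliated cell microRNAs, and the others were miR-10a-5p and miR-3535.

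**Figure D1:**
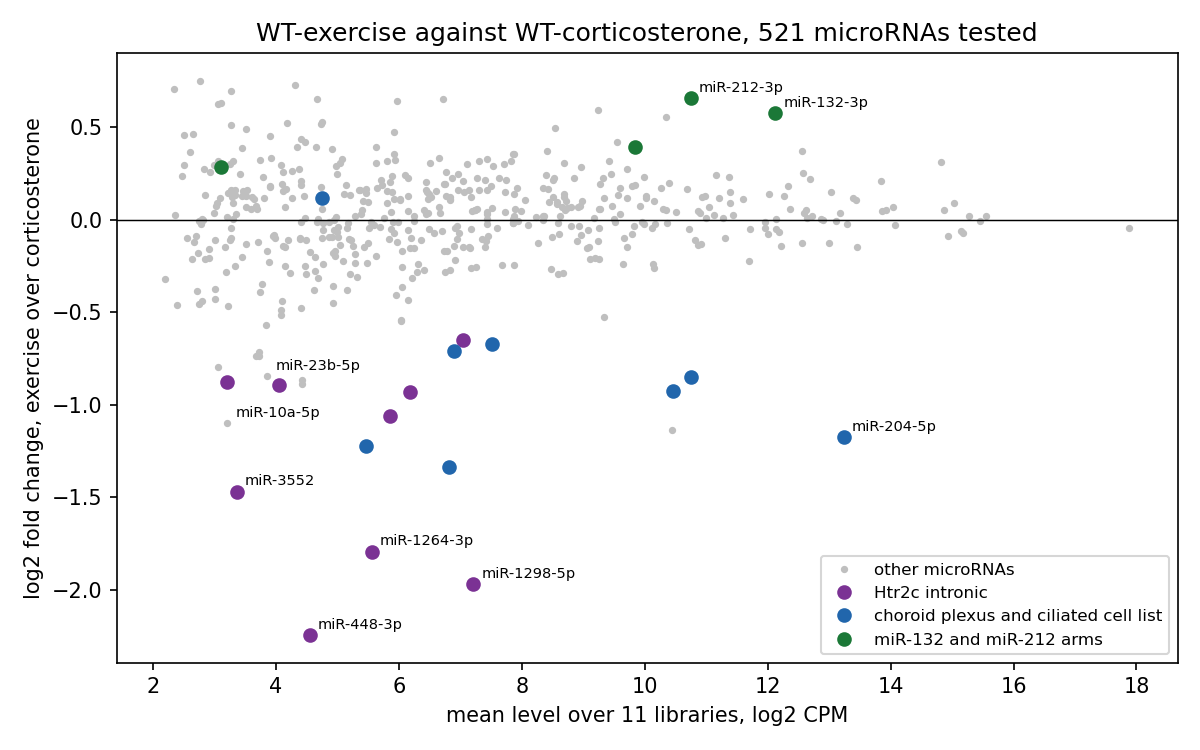
Log2 fold change (exercise over corticosterone, vertical axis) against the mean level over the 11 WT libraries (log2 CPM, horizontal axis) for the 521 microRNAs tested, each a point. The miR-132 and miR-212 arms (green) lie above 0, the microRNAs of Htr2c introns (purple, with miR-1264-5p matched to the gene by name only) and 7 of the 8 tested choroid plexus and ciliated cell microRNAs (blue) below it.

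MiR-212-3p stood at 2019, 2426, 2312, 1991 and 1978 CPM in the 5 WT-exercise libraries. In the 6 WT-corticosterone libraries it ranged from 1131 to 1490 CPM with a median of 1386. Every exercise library was thus above every corticosterone library. The log2 fold change was 0.66 ± 0.13 (SE; 95% interval 0.38 to 0.94), with an adjusted p of 0.107 in edgeR. The call differed between fits, and the cause was not tested. With the 7 WT-water libraries in the same edgeR fit the difference was 0.70 with an adjusted p of 0.00692, and with all 6 groups it was 0.67 with an adjusted p of 0.00570. DESeq2 gave an adjusted p of 8.23e-05, and limma-voom gave 0.122.

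MiR-132-3p, the more abundant 3p arm with the same seed, stood at 4509, 5633, 5646, 6242 and 5094 CPM after exercise. After corticosterone it ranged from 2828 to 5277 CPM with a median of 3310. The groups overlapped only through WT-corticosterone library 6, the highest of its group, which was above 2 exercise libraries. The log2 fold change was 0.58 ± 0.18 (edgeR adjusted p = 0.740).

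The 5p arms are the minor products of these hairpins. MiR-132-5p measured 935, 908, 1131, 1054 and 1225 CPM after exercise and 623 to 880 CPM (median 815) after corticosterone, without overlap, with a log2 fold change of 0.39 ± 0.14 (edgeR adjusted p = 0.740). Its lowest value came from WT-corticosterone library 6, in which miR-132-3p was highest, so in that library the 2 arms of the hairpin parted. MiR-212-5p was near 10 CPM, at 7.48 to 12.3 CPM after exercise and 4.03 to 13.1 CPM after corticosterone, with overlapping groups and a log2 fold change of 0.29 ± 0.30. Over all tested microRNAs the 2 groups did not overlap for 4 (0.768%): miR-212-3p, miR-132-5p and miR-135b-5p were higher after exercise and miR-3552 was lower.

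Against WT-water, in 1 fit of the 3 WT groups, miR-212-3p differed by 0.73 ± 0.12 on the log2 scale after exercise (edgeR adjusted p = 0.000248) and by 0.03 ± 0.11 after corticosterone (adjusted p = 0.835). Its water libraries ranged from 1128 to 1685 CPM with a median of 1286, in the scaling of that fit. For miR-132-3p the differences from water were 1.10 ± 0.16 after exercise and 0.49 ± 0.15 after corticosterone, with edgeR adjusted p-values of 0.000100 and 0.0194. For miR-132-5p they were 0.56 ± 0.12 and 0.13 ± 0.11. Both columns of differences share the same 7 water libraries and are therefore not independent of each other.

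**Figure D2:**
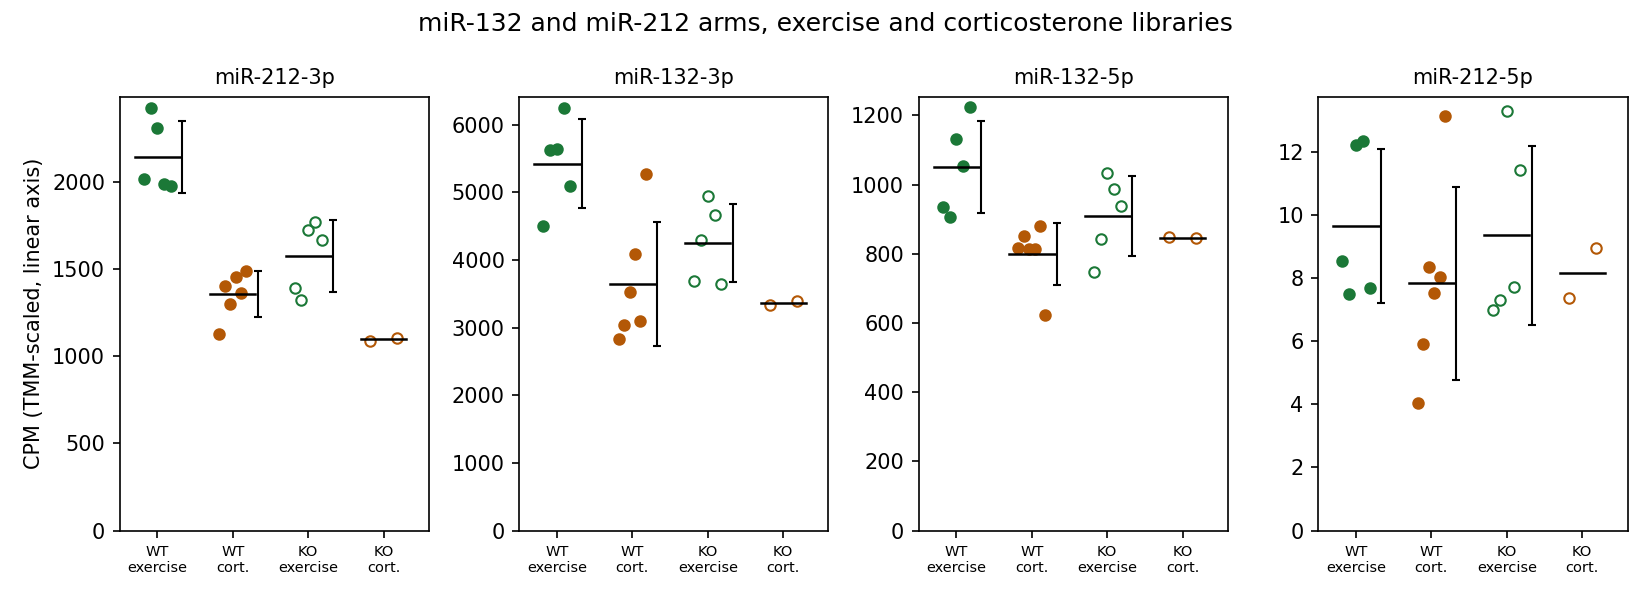
CPM of the miR-132 and miR-212 arms (vertical axes, linear, from 0) in each WT (filled) and KO (open) library after exercise (green) and corticosterone (orange); horizontal lines are means and bars SDs, omitted for the KO-corticosterone group of 2. The values of miR-212-3p do not overlap between treatments in WT, where this held for 0.768% of all microRNAs tested. They do not overlap in KO either, but with only 2 corticosterone libraries separation arises by chance more readily, and its share in KO was not counted. The values of miR-212-5p overlap.

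Further microRNAs on a list of activity-regulated and synaptic microRNAs differed less. Of its 20 members, all tested, 0 were called in edgeR and 3 had an unadjusted p below 0.05. All 3 were higher after exercise and came from the miR-132/212 locus. Over all 521 tested, 1.54% were higher after exercise at that threshold. The median log2 fold change of the list was 0.12, against 0.03 over all tested. MiR-138-5p and miR-134-5p, which restrain dendritic spine size, are on this list. MiR-134-5p measured 224 to 544 CPM after exercise and 138 to 448 CPM after corticosterone, with wide overlap. Of 22 neuron-enriched microRNAs tested none had an unadjusted p below 0.05 in edgeR (0 called; median log2 fold change 0.04). MiR-124-3p differed by -0.05 ± 0.16 and miR-9-5p by 0.02 ± 0.25.

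The largest fitted differences were in microRNAs of Htr2c introns, which were lower after exercise. By RefSeq coordinates 11 mature microRNAs lie within the gene, 8 of which passed the filter on low counts. All 8 had negative log2 fold changes, 5 of them with an unadjusted p below 0.05 and 0 called in edgeR. Over all 521 tested, 55.7% had a log2 fold change above 0, and 2.30% were lower after exercise at an unadjusted p below 0.05 in edgeR. The 8 come from the same gene, and the same corticosterone libraries were highest in all of them, so they are not independent. MiR-3552, one of these 8, was not on the list of Htr2c microRNAs and was placed there from its coordinates after its values were seen. On that list, which also holds miR-1264-5p, 8 of 10 members were tested, 4 had an unadjusted p below 0.05, and the median log2 fold change was -0.995.

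MiR-1298-5p, the most abundant of them after corticosterone, measured 76.1, 120, 22.9, 34.5 and 31.3 CPM after exercise. The corticosterone libraries 1, 4 and 5 held 386, 357 and 430 CPM, and the libraries 2, 3 and 6 held 63.7, 54.1 and 50.7 CPM. The latter lay within the exercise range. Its log2 fold change was -1.97 ± 0.69 (95% interval -3.45 to -0.48; edgeR adjusted p = 0.740). MiR-448-3p was at 2.44 to 13.0 CPM after exercise and at 72.5, 41.4 and 85.4 CPM in corticosterone libraries 1, 4 and 5, against 3.57 to 12.2 CPM in the others. It gave -2.24 ± 0.83, the largest difference of all microRNAs tested (edgeR adjusted p = 0.740).

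MiR-1264-3p ranged from 12.3 to 26.3 CPM after exercise. After corticosterone it was at 142, 59.5 and 150 CPM in libraries 1, 4 and 5 and at 18.8 to 24.6 CPM in libraries 2, 3 and 6, with a log2 fold change of -1.79 ± 0.57. MiR-3552 parted the groups in full, at 2.67 to 7.81 CPM after exercise and 8.18 to 27.6 CPM after corticosterone. Its log2 fold change was -1.47 ± 0.44 (edgeR adjusted p = 0.740), at a level of only a few CPM in the exercise libraries. MiR-764-5p, miR-448-5p, miR-1298-3p and miR-764-3p followed with -1.06 ± 0.60, -0.93 ± 0.49, -0.89 ± 0.40 and -0.65 ± 0.43. In all 8 tested members corticosterone libraries 1 and 5 were the highest of the 11, and in 5 of the 8 library 4 was the third.

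The same corticosterone libraries stood out on a second list of microRNAs. Summed over a list of 13 microRNAs of choroid plexus and ciliated cells, the level was 6510 to 10929 CPM after exercise. It was 33351, 15449 and 28470 CPM in corticosterone libraries 1, 4 and 5 and 7590 to 10557 CPM in libraries 2, 3 and 6. Its 8 tested members gave 7 negative log2 fold changes with a median of -0.89. In edgeR 4 had an unadjusted p below 0.05, all lower after exercise, and 0 were called. Over all 521 tested, 2.30% were lower after exercise at that threshold and 55.7% had a log2 fold change above 0. Members that share a hairpin or transcript are not independent. The summed level of the Htr2c list was 232 to 340 CPM after exercise, 1249, 777 and 1388 CPM in corticosterone libraries 1, 4 and 5, and 206 to 332 CPM in the others. What part choroid plexus tissue in these 3 libraries had in the Htr2c difference was not tested.

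MiR-204-5p, the most abundant microRNA of the choroid plexus list, stood at 5112, 5202, 7865, 6031 and 4421 CPM after exercise. After corticosterone it ranged from 5158 to 26383 CPM with a median of 9316. Libraries 1 and 5 were highest at 26383 and 20303 CPM, and library 3 lay inside the exercise range. The log2 fold change was -1.17 ± 0.39 (95% interval -2.03 to -0.32; edgeR adjusted p = 0.740). MiR-211-5p, which shares its seed, gave -1.22 ± 0.39 and was highest in corticosterone library 2 at 106 CPM, a library in which miR-204-5p was at 7917 CPM. The passenger arm miR-204-3p gave -1.33 ± 0.54.

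Within the seed family of miR-34, the fitted differences of miR-34b-5p and miR-34c-5p were negative and those of miR-34a-5p and miR-449a-5p were small. No test compared the members with each other. MiR-34b-5p was at 646 to 1283 CPM after exercise and at 696 to 3095 CPM after corticosterone, and libraries 1, 4 and 5 were again the highest (2379, 2093 and 3095 CPM). Its log2 fold change was -0.92 ± 0.34 (edgeR adjusted p = 0.740). MiR-34c-5p, from the same transcript, gave -0.85 ± 0.48. MiR-34a-5p, which is encoded on another chromosome and responds to p53, differed by -0.01 ± 0.14, with a 95% interval of -0.32 to 0.30. MiR-449a-5p, a ciliated cell microRNA with this seed, gave 0.12 ± 0.28 and was at 33.9, 20.1 and 23.1 CPM in corticosterone libraries 1, 4 and 5, within the range of 15 to 37.4 CPM after exercise.

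**Figure D3:**
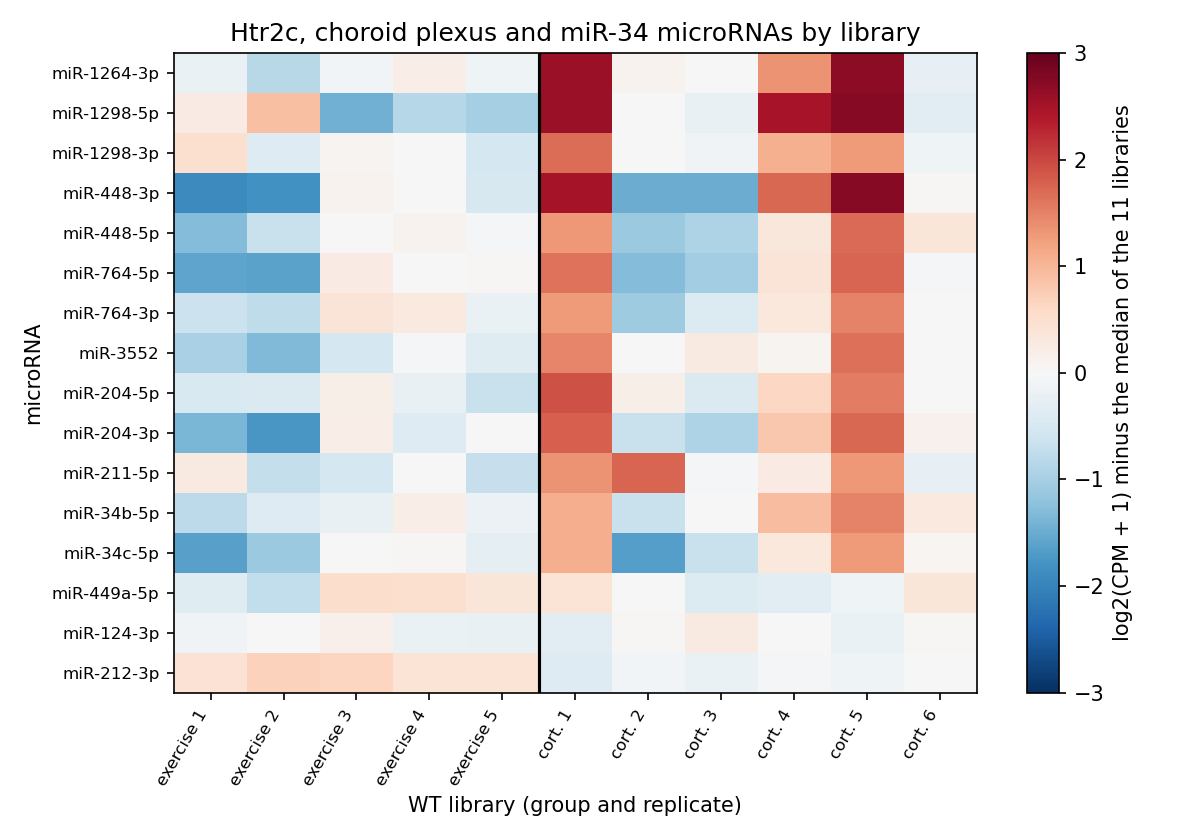
Log2(CPM + 1) of 16 microRNAs (rows) in the 11 WT libraries (columns), each row shown as the difference from its median over the 11 libraries (colour scale in log2 units). Corticosterone libraries 1, 4 and 5 are red for the Htr2c microRNAs, for miR-204-5p and for miR-34b-5p, whereas miR-449a-5p and miR-124-3p show no such block; miR-212-3p is above its median in the 5 exercise libraries.

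The WT-water group had a spread of the same kind. MiR-204-5p averaged 9778 ± 6445 CPM (SD, n = 7) and miR-1298-5p 511 ± 565 CPM in water. Relative to water, miR-204-5p differed by -0.72 ± 0.42 after exercise and 0.40 ± 0.39 after corticosterone on the log2 scale (edgeR adjusted p-values of 0.189 and 0.429). MiR-1298-5p differed by -3.12 ± 0.87 after exercise and -1.20 ± 0.74 after corticosterone (adjusted p-values of 0.0127 and 0.207). Without corticosterone libraries 1, 4 and 5, an alternative chosen after seeing the data, edgeR again called 0 microRNAs, with 13 at an unadjusted p below 0.05 (11 higher and 2 lower after exercise). MiR-212-3p then gave a log2 fold change of 0.65, and the smallest edgeR adjusted p of any microRNA in that fit was 0.999.

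Outside these groups, miR-23b-5p, miR-10a-5p and miR-3535 were lower and 5 microRNAs higher after exercise at an unadjusted p below 0.05. MiR-23b-5p, the passenger arm of miR-23b, was at 15.2, 8.55, 8.40, 10.7 and 7.69 CPM after exercise and at 10.9 to 23.2 CPM after corticosterone (log2 fold change -0.84 ± 0.26, edgeR adjusted p = 0.740). MiR-10a-5p, encoded in a Hox cluster and typical of hindbrain and spinal cord, was at 3.29 to 11.2 CPM and 6.37 to 19.0 CPM, with a log2 fold change of -1.10 ± 0.38. Its relative miR-10b-5p was too scarce to test, with 11 counts in all exercise libraries and 40 in all corticosterone libraries, a ratio of rates of 0.346 with an interval of 0.160 to 0.687 that covers counting error only. MiR-3535 (chosen after its values were seen), whose RefSeq position coincides with an annotated snoRNA in an intron of Ncl, gave -1.13 ± 0.51 and ranged from 184 to 2022 CPM within the exercise group alone.

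MiR-135b-5p belongs to a family reported to target the serotonin transporter and the serotonin 1A receptor. It stood at 237, 212, 252, 226 and 244 CPM after exercise and at 168 to 206 CPM (median 194) after corticosterone, without overlap. The log2 fold change was 0.30 ± 0.14 (edgeR adjusted p = 0.999). Its more abundant relative miR-135a-5p differed by 0.03 ± 0.23, with 1695 to 2982 CPM after exercise and 1121 to 2806 CPM after corticosterone. MiR-325-3p, also reported to target the transporter, gave 0.73 ± 0.27, and miR-467b-5p and miR-467a-3p, from the Sfmbt2 intron cluster, gave 0.69 ± 0.27 and 0.52 ± 0.21. MiR-1983 gave 0.47 ± 0.21. Of 11 listed as targeting this transporter, all tested, 2 had an unadjusted p below 0.05 in edgeR, both higher after exercise. Their median was 0.12 and 0 were called. Over all 521 tested, 1.54% were higher after exercise at that threshold. Of 7 tested microRNAs reported to target the glucocorticoid receptor, 0 were called, none had an unadjusted p below 0.05 in edgeR or lay outside -0.12 to 0.25, and the median was 0.12.

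MiR-126b-5p, miR-130a-3p, miR-16-5p and miR-146b-5p, which differed from water in both treated groups, had overlapping levels after exercise and corticosterone. In the joint fit of the 3 WT groups, edgeR called 30.8% of 565 microRNAs for exercise against water and 31.9% for corticosterone against water, contrasts that share the water libraries. All 7 WT-water libraries lay at the low end of the within-group axis, at -8.00 to -10.9. What part this had in the differences from water was not tested. MiR-126b-5p, encoded opposite the endothelial microRNA miR-126a in Egfl7, was at 39.0, 157, 18.3, 70.7 and 58.9 CPM after exercise and 14.4 to 96.4 CPM (median 64.3) after corticosterone. It was at most 0.469 CPM in any of the 7 water libraries. Between the treatments it differed by 0.33 ± 0.55, with a 95% interval of -0.85 to 1.51, and miR-122b-3p by 0.19 ± 0.60. For these 2 microRNAs the intervals allowed differences above 1 log2 unit.

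The interval was narrower for abundant microRNAs. MiR-130a-3p was at 1208 to 2240 CPM after exercise and 1604 to 2322 CPM after corticosterone, and differed by -0.14 ± 0.18 (95% interval -0.52 to 0.25). Its differences from water were 1.37 ± 0.17 after exercise and 1.47 ± 0.16 after corticosterone. MiR-16-5p, reported to target the serotonin transporter, differed by 0.21 ± 0.31 between treatments, with 8045 to 25533 CPM after exercise and 8132 to 21221 CPM after corticosterone. From water it differed by 1.56 ± 0.25 and 1.31 ± 0.24. MiR-146b-5p, of the innate immune response, differed by -0.09 between treatments, and by 0.82 ± 0.17 and 0.87 ± 0.16 from water. Red blood cell miR-451a differed by 0.25 ± 0.41 between treatments and by -1.03 ± 0.35 and -1.31 ± 0.33 from water.

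**Figure D4:**
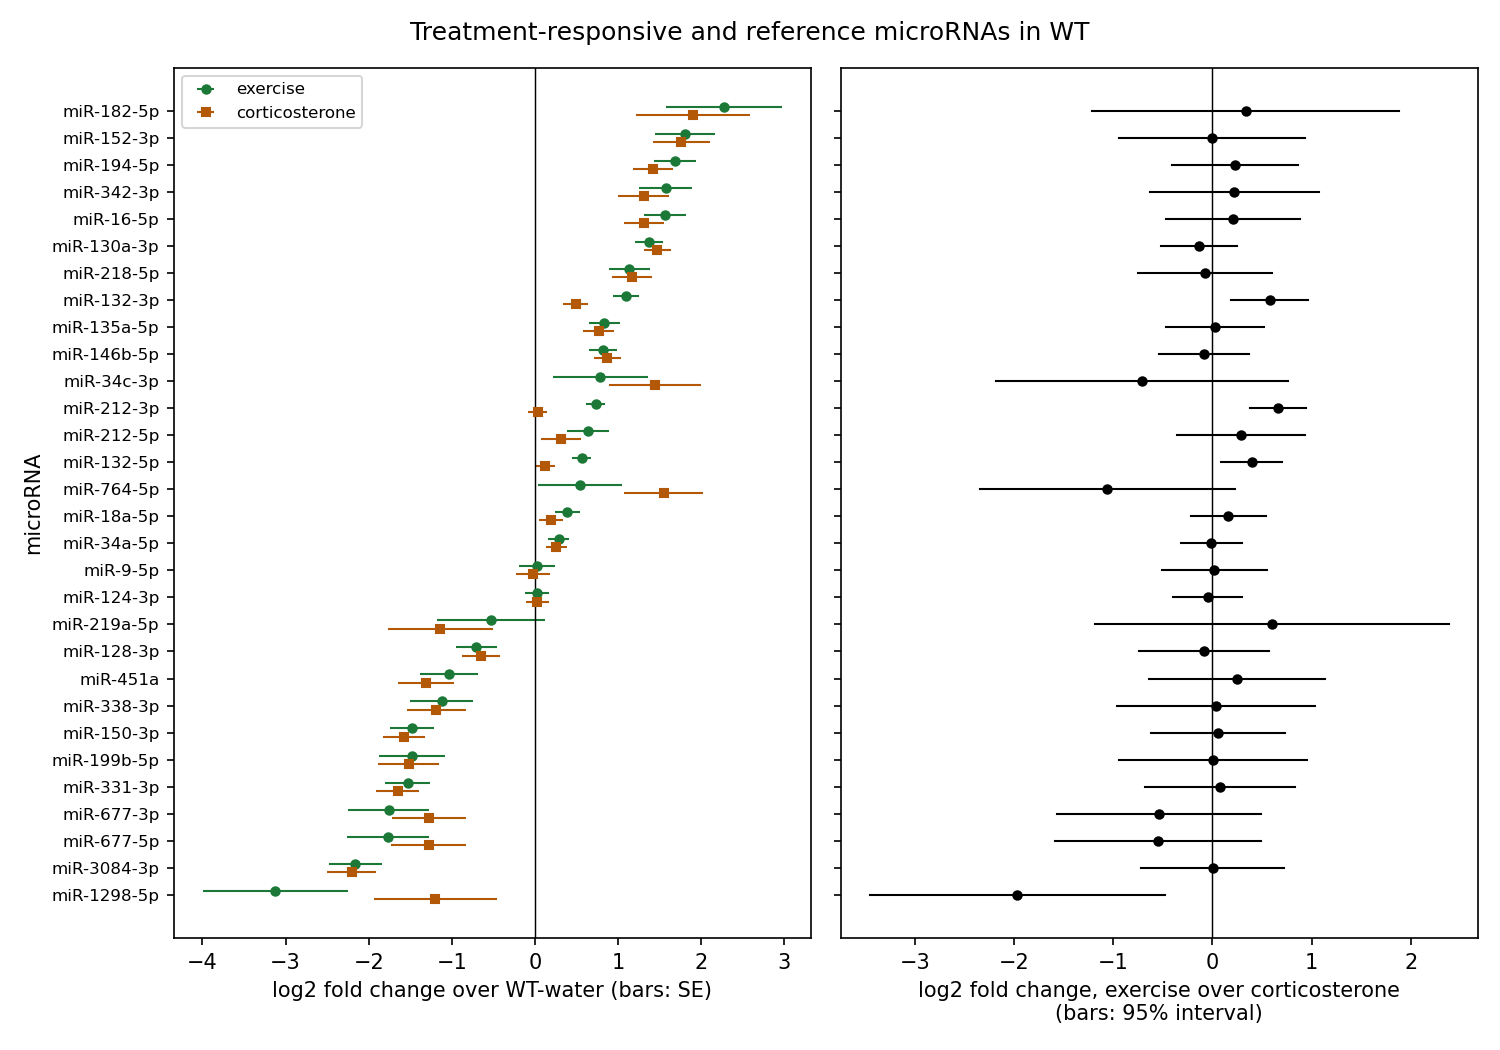
Left, log2 fold changes over WT-water (horizontal axis, bars are SE) after exercise (green) and corticosterone (orange) for 30 microRNAs; right, the direct log2 fold change of exercise over corticosterone with its 95% interval. The intervals, not adjusted for the number of tests, lie above 0 for miR-132-3p, miR-212-3p and miR-132-5p and below 0 for miR-1298-5p. Those of the other 26 include 0, and no microRNA was called in this edgeR comparison.

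Oligodendrocyte and co-varying microRNAs followed the spread within groups. MiR-219a-5p, of the oligodendrocyte lineage, was at 871 and 2290 CPM in WT-exercise libraries 1 and 2 and at 95.5 to 239 CPM in libraries 3, 4 and 5. In corticosterone library 2 it was at 1571 CPM, against 115 to 534 CPM in the other 5. MiR-342-3p ran the other way, at 3379 and 2511 CPM in exercise libraries 1 and 2 and 6490 to 15389 CPM in libraries 3, 4 and 5. Between treatments the 2 microRNAs differed by 0.60 and 0.22 on the log2 scale, with intervals that included 0. With 1 library left out, miR-219a-5p ranged from -0.46 (without WT-exercise library 2) to 1.43 (without WT-corticosterone library 2), and miR-342-3p from -0.27 (without WT-exercise library 3) to 0.44. With the score on the within-group axis as a covariate, edgeR called 1 microRNA, miR-212-3p (log2 fold change 0.66, adjusted p = 0.00626).

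The same contrast was made in KO mice, with only 2 corticosterone libraries. MiR-212-3p stood at 1391, 1325, 1724, 1773 and 1668 CPM in the 5 KO-exercise libraries and at 1091 and 1104 CPM in the KO-corticosterone libraries, without overlap. With only 2 libraries in a group, full separation arises by chance more readily than in WT, and its share over all KO microRNAs was not counted. The log2 fold change was 0.52 ± 0.18 (edgeR adjusted p = 0.998). The difference between the genotypes in this effect was 0.14 ± 0.20 (interaction in edgeR, adjusted p = 0.999). MiR-132-3p gave 0.34 ± 0.18 and miR-132-5p 0.10 ± 0.18 in KO.

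In KO mice too, miR-204-5p was higher after corticosterone, at 6848 and 15435 CPM against 5304 to 6260 CPM after exercise (log2 fold change -0.94 ± 0.26). MiR-1298-5p was at 77.2 and 387 CPM after corticosterone and 16.7 to 117 CPM after exercise (-1.88 ± 0.64). For both microRNAs the second library was the higher of the 2. The first lay within the exercise range for miR-1298-5p, miR-1264-3p, miR-34b-5p and miR-448-3p, but above all 5 exercise libraries for miR-204-5p. Of 550 microRNAs tested in KO, edgeR called 0 (13, or 2.36%, at an unadjusted p below 0.05) and DESeq2 called 0. With the first KO-corticosterone library left out, edgeR called 4, all lower after exercise: miR-204-5p, miR-34b-5p, miR-3552 and miR-1264-3p. That fit has a lone corticosterone library, assumed to vary like the exercise group.

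Of the 20 microRNAs with an unadjusted p below 0.05 in WT, 15 (75.0%) had the same sign in KO, against 285 of 519 (54.9%) of all microRNAs tested in both. Across the 519 microRNAs the log2 fold changes of the 2 genotypes had a Pearson r of 0.289 and a Spearman rho of 0.0911, a description over microRNAs that are not independent. MiR-10a-5p went opposite ways, with -1.10 in WT and 1.27 ± 0.48 in KO, where it was at 6.26 to 14.2 CPM after exercise and at 3.47 and 4.73 CPM after corticosterone. Its interaction was -2.36 ± 0.64 (edgeR adjusted p = 0.988). Over 591 microRNAs the interaction was called for 0 in edgeR (10, or 1.69%, at an unadjusted p below 0.05) and for 0 in DESeq2. Both KO-corticosterone libraries carry the code letter H, as does 1 of the 6 WT-corticosterone libraries, and the labels give the letter no meaning.

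**Figure D5:**
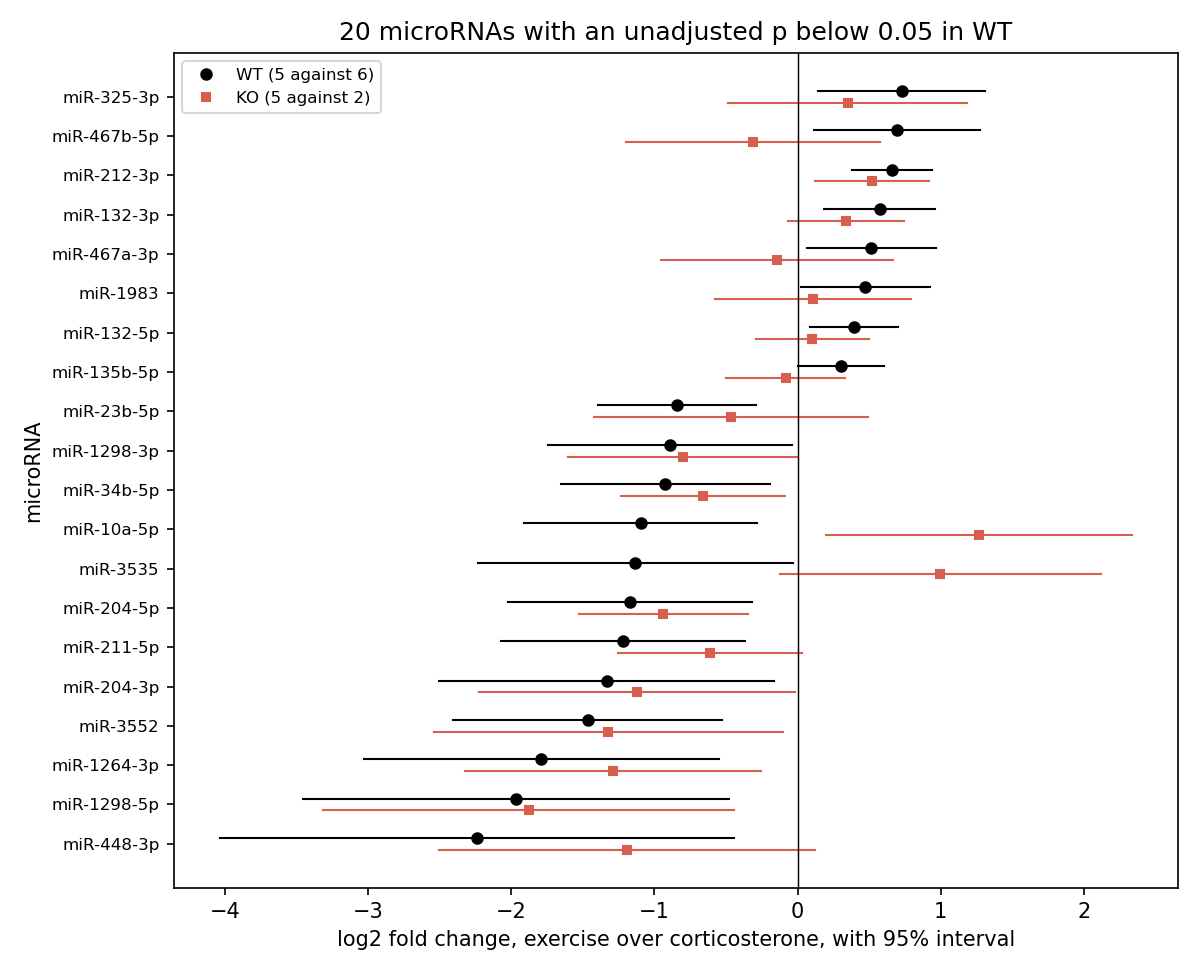
Log2 fold change of exercise over corticosterone with its 95% interval (horizontal axis) for the 20 microRNAs with an unadjusted p below 0.05 in WT (black; 5 against 6 libraries) and the same contrast in KO (red; 5 against 2). MiR-212-3p lies above 0 in both genotypes, and 15 of the 20 have the same sign in KO. The WT values were chosen by their p, and several of the 20 share a gene or locus and are not independent.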

How the data were processed

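The values are read counts as the authors deposited them, in 5 tables that each hold 2 groups and 1966 mature microRNAs, of which 391 had no count in any library. The submitters' processing notes name GRCm38 (mm10), featureCounts of Subread, BWA, cutadapt 2.3 and limma 3.54.1 without their roles or any statement on the use of strand in counting. Columns were matched to samples by the code in the labels. The 24 repeat columns of libraries held in more than 1 table were identical, 0 other columns of per-sample values were present, and no 2 libraries of a group agreed within sampling noise (lowest chi-square per degree of freedom 16.1). The 11 libraries had 1411350 to 2409803 counts. The labels name biological replicates, so p-values measure the spread between these libraries. Both groups are WT, so no targeted gene could check the labels, and the transporter messenger is not among the features.

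The WT-exercise and WT-corticosterone counts, taken from 2 of the tables, were joined and fitted with edgeR 4.0.16 in R 4.3.3 (filterByExpr, TMM factors of 0.928 to 1.10, estimateDisp, robust glmQLFit, quasi-likelihood F test). P-values were adjusted by Benjamini-Hochberg over all 521 microRNAs tested, and a call was an adjusted p below 0.05. Each SE is the log2 fold change divided by the square root of F, and CPM values use TMM-scaled library sizes. KO and interaction contrasts, and a fit of the 3 WT groups, were made in the same way. Library measures were compared by exact permutation over samples.

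Named microRNAs were the 10 of smallest p in either direction, a fixed set, the 2 most abundant tested members of each list and the 5 most abundant overall; others are named as list members or where stated. Members and lists were chosen with earlier results of these data known. Alternatives were DESeq2 1.42.0, its size factors, no scaling, limma-voom (limma 3.58.1), other filters, joint fits, the code letter G or H, a block for replicate number, the within-group axis as a covariate and leaving out libraries. No pairing of samples by replicate number was seen, and none was used in the main fit.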

Additional observations from a re-analysis of the deposited data

Results flagged for a closer look

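In 168 groups of values (each named microRNA in each of the 2 treated WT groups, and library measures), 12 values lay apart from the rest of their group by Dixon's 95% criterion, which chance alone would meet in about 1 group in 20. WT-corticosterone library 2 gave 5 of the 12: miR-219a-5p at 1571 CPM against 115 to 534 in the other 5 libraries, miR-434-3p at 13806 CPM against 3010 to 6716, miR-376a-3p at 6363 CPM against 3085 to 4202, miR-18a-5p at 94.6 CPM against 136 to 154, and miR-21a-5p at 1501 CPM against 1832 to 2016. WT-corticosterone library 6 was low for miR-132-5p, at 623 CPM against 814 to 880, and high for let-7c-5p, at 44285 CPM against 22126 to 29529. WT-corticosterone library 4 was high for miR-299a-3p, at 20.1 CPM against 13.6 to 15.

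In the exercise group, both arms of miR-677 were high in library 1, miR-677-5p at 126 CPM against 27.3 to 45.1 and miR-677-3p at 125 CPM against 27.8 to 44.6. Library 2 was high for the red blood cell microRNA miR-144-3p, at 184 CPM against 32.8 to 74.9. Library 3 was high for the endothelial microRNA miR-126a-3p, at 12314 CPM against 5335 to 7244. Without WT-corticosterone library 2, edgeR still called 0 microRNAs, with 29 at an unadjusted p below 0.05.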

How the results depend on the processing

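The count of 0 called microRNAs in WT became 1, in each case miR-212-3p, with DESeq2, in the joint fits with WT-water and of all 6 groups, and with the within-group axis as a covariate; the cause was not tested. It was 0 with DESeq2 size factors, without scaling, with limma-voom and under both other filters. The letter H libraries alone, 2 against 1, gave 13 (10 higher and 3 lower after exercise, among them miR-132-5p at 0.87); there 33 of 80 named microRNAs had the opposite sign, of which 4 had an unadjusted p below 0.05 in the comparison as reported or a call in that fit, miR-467a-3p at -0.066, miR-1264-3p at 0.33, miR-150-5p at -0.40 and miR-145a-5p at -0.43, in a fit whose lone corticosterone library is assumed to vary like the others. The letter G libraries alone gave 0, as did the letter as a covariate. Leaving out each of the 11 libraries in turn gave 0 to 0 calls, with miR-212-3p at 0.61 to 0.69 and an adjusted p of 0.197 to 0.407. In KO, leaving out 1 library gave 0 to 4 calls, the 4 without KO-corticosterone replicate 1. The interaction gave 0 calls under every alternative run. Leaving out WT-exercise libraries 1 and 2 and WT-corticosterone library 2, chosen after seeing the data, gave 0 calls and 42 microRNAs at an unadjusted p below 0.05. Of 2077 comparisons of named microRNAs with their main value, 2049 kept their direction and side of the threshold or moved within the spread between libraries.

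With the replicate number as a block, on numbers 1 to 5 of both groups, edgeR called 0 microRNAs in WT (smallest adjusted p 0.465), and 0 without the block on the same libraries (0.200); the block on numbers 1 and 2 in KO gave 0. The deviations of same-numbered libraries from their group means had r of -0.43, 0.69, -0.48, -0.15 and 0.19, and only number 2 correlated best with its own number. No pairing by number was thus seen. With 5 numbers and a wide spread within groups, this check cannot settle whether samples were paired. Depth limited the low microRNAs: those at a few CPM, such as miR-3552 and miR-10a-5p, rest on few counts per library.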

Other observations

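The imprinted Dlk1-Dio3 locus gives rise, on its maternal allele, to large microRNA clusters of the brain. In the cluster from miR-379 to miR-410, 47 of 59 tested microRNAs had a positive log2 fold change, with a median of 0.11 against 0.03 over all 521, and near miR-127 and miR-433 16 of 22 did, with a median of 0.13; over all 521 the share above 0 was 55.7%. In both, 0 were called and 0 had an unadjusted p below 0.05 in edgeR. The summed level of the first cluster was 22524 to 30228 CPM after exercise and 21379 to 28344 CPM after corticosterone. That of the microRNAs near miR-127 and miR-433 was 25138 and 28310 CPM in WT-exercise libraries 1 and 2. In exercise libraries 3, 4 and 5 it was 12432, 13281 and 13692 CPM, within the range of 12342 to 27390.5 CPM after corticosterone. The members of a cluster share a transcript and are not independent.

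Families with broad expression had small median differences. The let-7 and miR-98 family (22 tested) had a median log2 fold change of -0.01, the miR-17/92 and related clusters (12 tested) 0.01, the miR-30 family (9 tested) -0.07, and microRNAs of adult neural stem and progenitor cells (17 tested) 0.00. Vessel microRNAs (11 tested) had a median of -0.08, microglia and immune microRNAs (8 tested) 0.05, oligodendrocyte microRNAs (6 tested) 0.03 and red blood cell microRNAs (5 tested) 0.23. In each of these lists 0 members were called and 0 had an unadjusted p below 0.05 in edgeR. All 5 tested epithelial and sensory microRNAs (miR-200 and miR-183 groups) had a log2 fold change above 0, with a median of 0.33 and none with an unadjusted p below 0.05. Their summed level was 245 CPM in WT-exercise library 4, 67.6 to 137 CPM in the other exercise libraries and at most 206 CPM after corticosterone. Without that library miR-182-5p was at -0.59, and without WT-exercise library 2 miR-200a-3p was at -0.15.

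Other microRNAs were below the filter on low counts. MiR-1912-3p, within an Htr2c intron, had 17 counts over the 5 exercise libraries and 66 over the 6 corticosterone libraries, a ratio of rates of 0.324 (exact 95% interval 0.178 to 0.558, counting error only). Of the 66 counts, 33 came from corticosterone library 1, and without it the ratio was 0.551 (0.288 to 1.02), a comparison chosen after seeing the data. MiR-362-5p had 42 and 24 counts, a ratio of 2.20 (1.30 to 3.80), and miR-2137 had 34 and 44, a ratio of 0.971 (0.602 to 1.56). Of the 42 counts of miR-362-5p after exercise, 20 came from library 2, and without it the ratio was 1.47 (0.787 to 2.74). MiR-1911-5p and miR-1911-3p, also within Htr2c, had 0 counts in all 11 libraries.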
